A study of Rattus norvegicus with 12 samples.

Results

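The cytochrome P450 superfamily was represented by 53 genes, of 14217 genes in all, with 60 of the 31042 probe sets that are not controls. A probe set was taken when its only gene symbol began with Cyp and a digit. The bile acid and cholesterol enzymes Cyp7a1, Cyp7b1, Cyp8b1, Cyp27a1 and Cyp51, with 6 probe sets, were left out by the same rule. RNA came from hepatocytes of Fischer 334 rats (the strain as the labels spell it), freshly isolated by collagenase perfusion of the liver in 2 steps and never cultured. The 4 groups were heart-beating donors and donors at 4, 16 or 30 h after death, with 3 donor animals and 1 array per animal in each group. The labels do not say the sex, the age or the manner of death. The comparisons with heart-beating donors ask how hepatocyte transcripts differ at each interval after death. All levels are log2 signals, and all differences are log2 differences.

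Cytochromes P450 are heme proteins that insert an oxygen atom into their substrates, with electrons delivered by NADPH-cytochrome P450 reductase in the endoplasmic reticulum or by ferredoxin in mitochondria. Hepatocytes carry most of the body's P450. Families CYP1 to CYP3 clear drugs and other foreign compounds, CYP4 enzymes hydroxylate fatty acids and eicosanoids, and further families make or break down steroid hormones, vitamin D, retinoic acid and oxysterols. Many of these genes answer to receptors that sense their ligands, among them AHR (CYP1), CAR and PXR (CYP2 and CYP3) and PPARA (CYP4A), and in the rat several follow the sex-dependent pattern of growth hormone.

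At most 9 of the 60 P450 probe sets were called at any time after death against heart-beating donors, a share near that of all probe sets. No called probe set of the superfamily had a fitted difference of 2-fold in any of the 6 comparisons among the 4 groups. Of all probe sets, 0.00644% at 4 h, 0.303% at 16 h and 1.18% at 30 h were called with such a difference from heart-beating donors, and 0.364% (16 h against 4 h), 0.702% (30 h against 16 h) and 1.2% (30 h against 4 h) between times. At 4 h, 0 of the 60 were called (limma, adjusted p under 0.05 over all 31042 probe sets), where 0.0226% of all probe sets were called. The smallest adjusted p among the 60 was 0.838, and 7 of the 60 (11.7%) had an unadjusted p under 0.05, against 5.27% of all probe sets. At 16 h, 2 were called, 1 higher and 1 lower, which is 3.33% of the members against 4.67% of all probe sets (3.18% higher, 1.49% lower). At an unadjusted p under 0.05, 12 members passed (20%, against 19.1%). At 30 h, 9 were called, 7 higher and 2 lower, which is 15% against 19.7% (10.4% higher, 9.36% lower). The order of these shares turned after a further quantile normalization (25% of the members against 20.9% of all probe sets) and after cyclic loess (21.7% against 20.6%). At an unadjusted p under 0.05, 20 members passed (33.3%, against 31.6%). Most members had a mean signal above the median of the array (45 of 60), where calls were more frequent. Among those probe sets, 20% of the members and 30.2% of all probe sets were called at 30 h.

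The size of the differences is bounded by their intervals. The 95% confidence interval lay within a 2-fold change in either direction for 59 members in the 4 h comparison, for 58 in that of 16 h and for 57 in that of 30 h. The exceptions were Cyp26a1 at 4 h, Cyp26a1 and Cyp2c22 at 16 h, and Cyp2j3, Cyp2t1 and 1 probe set of Cyp26b1 at 30 h, named after their values were seen. The median difference over the 60 was -0.01 at 4 h, -0.02 at 16 h and 0.02 at 30 h. Over all probe sets the medians were 0.00, -0.02 and 0.01. Groups did not overlap for 10 members at 4 h (16.7%, against 13.5% of all probe sets), for 15 at 16 h (25% against 28.7%) and for 14 at 30 h (23.3% against 33.5%). The median SD within a group was 0.13 for the members and 0.10 for all probe sets.

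**Figure D1:**
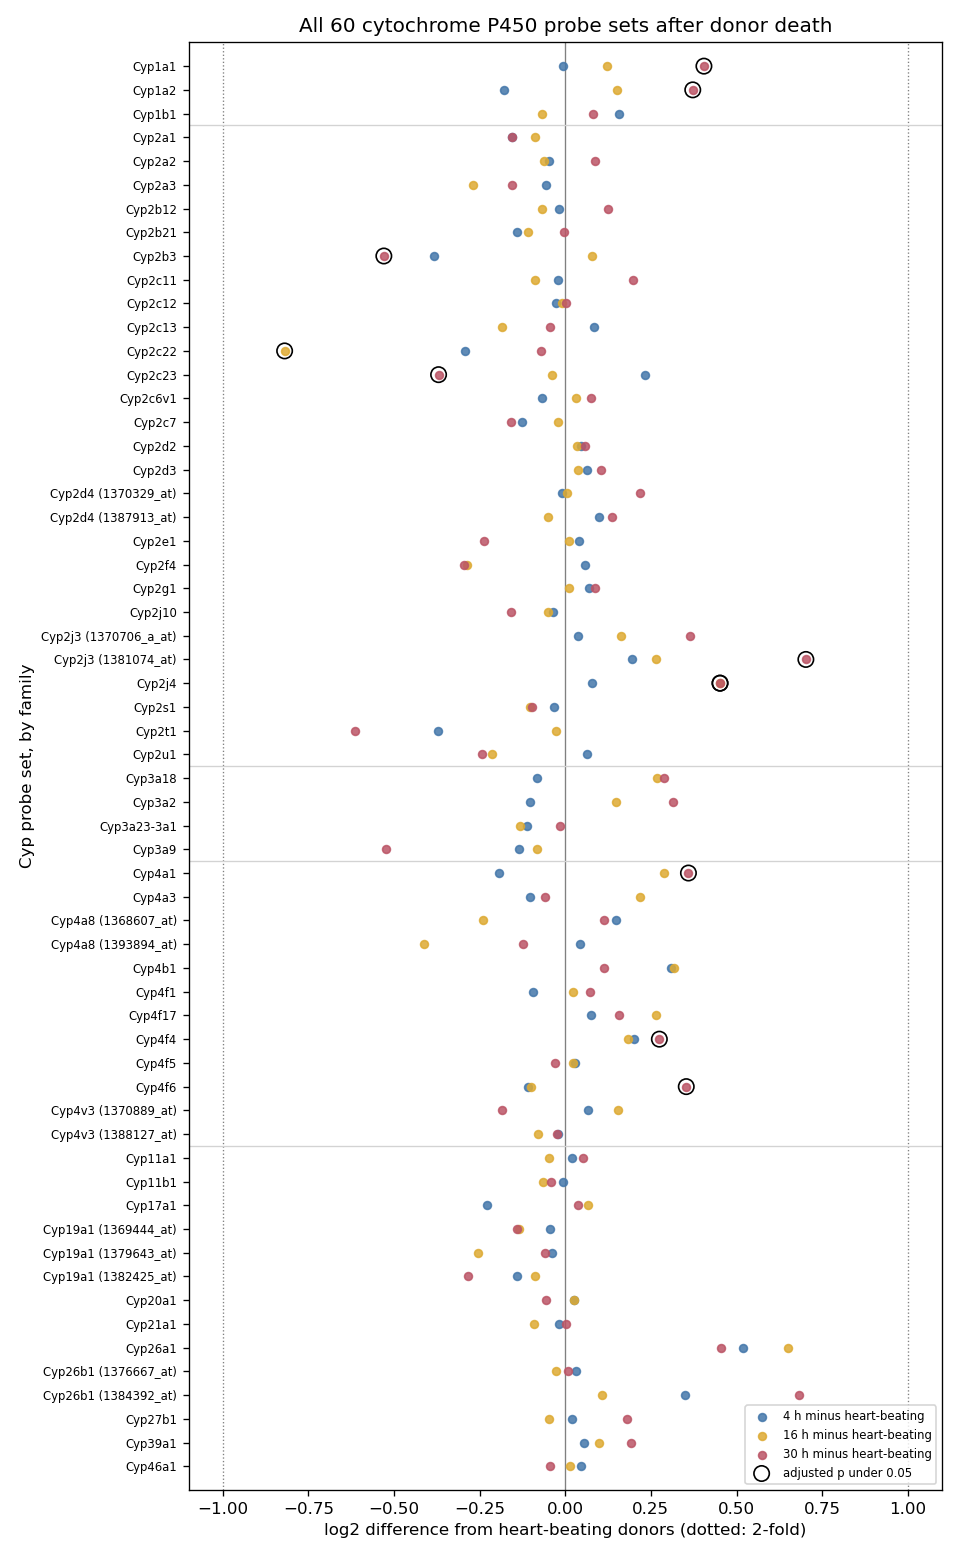
Log2 difference from heart-beating donors of each of the 60 cytochrome P450 probe sets, grouped by family, at 4, 16 and 30 h after death. Each dot is a difference of group means (3 arrays each), rings mark an adjusted p under 0.05, and dotted lines mark a 2-fold change, which no dot reaches.

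**Figure D2:**
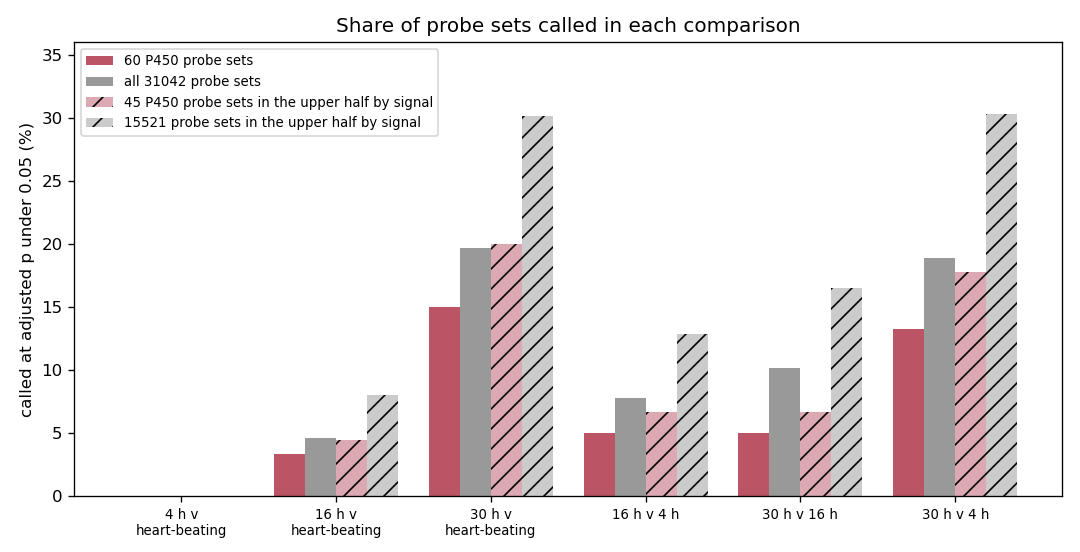
Percent of probe sets called at an adjusted p under 0.05 in each of the 6 comparisons, for the 60 cytochrome P450 probe sets, for all 31042 probe sets, and for both among the probe sets above the median signal. The P450 bars at 30 h against heart-beating donors stand at 15% and 20%, beside 19.7% and 30.2% for all probe sets.

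Between the times after death, 3 members were called at 16 h against 4 h, all higher at 16 h (5%, against 7.82% of all probe sets, of which 5.31% higher). At 30 h against 16 h, 3 were called, 2 higher and 1 lower at 30 h (5% against 10.2%, of which 4.29% higher and 5.95% lower). At 30 h against 4 h, 8 were called, 5 higher and 3 lower at 30 h (13.3% against 18.9%, of which 10.3% higher and 8.62% lower). Across the 6 comparisons, 12 genes had a call in at least 1 and 41 genes had none. By limma's moderated F test across the 4 groups, 9 members were called (15%, against 21.3%).

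RNA quality and traces of other cells differed between the groups. The 3' control probe set of Gapdh exceeded the 5' one, a gap that grows as RNA degrades, by 0.39 ± 0.08 (SD, n = 3) on heart-beating arrays. The gap was 0.38 ± 0.10 for the 4 h arrays, 1.05 ± 0.20 for those of 16 h and 1.97 ± 0.29 for those of 30 h. By an exact permutation test (two-sided) the 4 h gap gave p = 1 and each later gap p = 0.1, the smallest value that 3 against 3 arrays allow. The same gap of Actb was 1.80 to 1.90 on heart-beating arrays, 1.54 to 1.81 at 4 h (p = 0.2, exact), 1.89 to 2.54 at 16 h (p = 0.2, exact), where the groups overlapped, and 2.75 to 2.95 at 30 h (p = 0.1, exact), where they did not. The Gapdh gap of every 16 h and 30 h array lay above that of every heart-beating array. Death interval and RNA quality therefore cannot be told apart at 16 h or at 30 h. With the Gapdh gap as a covariate, 0 of the 60 members were called at either time, where 0.226% and 0% of all probe sets were called. In that fit the median SE of the members' differences was 0.17 at 16 h and 0.35 at 30 h, in place of 0.10. An unadjusted p under 0.05 was found for 16 and 6 members, and for 6705 and 4438 of all 31042 probe sets. Cell type markers were read at the brightest probe set of each gene. Over 14217 genes read so, 5.6% were called at 16 h (4.3% higher, 1.3% lower). At 30 h, 23% were called (12.5% higher, 10.5% lower). Of 13 hepatocyte markers, 1 was higher (Hnf4a) and 2 lower (Asgr1, Apoa1) at 30 h (23.1% called). Another probe set of Hnf4a was lower (-0.61, limma adjusted p = 0.000938). Array means of the hepatocyte markers were 12.58 to 12.76 in heart-beating donors and 12.60 to 12.64 at 4 h. They were 12.74 to 12.82 at 16 h and 12.43 to 12.59 at 30 h. Kupffer cell markers were lower for 5 of 11 at 16 h and 7 of 11 at 30 h, with array means from 8.52 to 8.59 in heart-beating donors and 7.75 to 8.03 at 30 h. Endothelial markers were higher for 3 of 10 at 16 h and 2 of 10 at 30 h (array means 7.82 to 7.92 in heart-beating donors, 8.19 to 8.27 at 16 h and 7.70 to 8.21 at 30 h). Stellate markers were higher for 2 and lower for 1 of 11 at 16 h and higher for 6 at 30 h (7.04 to 7.38 in heart-beating donors, 7.48 to 7.86 at 30 h), and red cell markers were higher for 3 and 4 of 6 (7.59 to 7.76, and 8.54 to 9.11 at 30 h). None of the 6 cholangiocyte markers was called. The part of these other cells in the P450 results was not tested. In such bulk RNA, fewer cells of a type and less RNA per cell cannot be told apart.

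The CYP1 enzymes, which oxidise polycyclic aromatic compounds and aromatic amines, were higher at 30 h for 2 of 3 genes. Over all probe sets, 19.7% were called at 30 h, 10.4% higher, and 3 genes are too few for a share of the family to be read. Cyp1a1, the classical AHR target, had log2 signals of 6.57, 6.32 and 6.53 in heart-beating donors, 6.57, 6.49 and 6.34 at 4 h, 6.71, 6.60 and 6.47 at 16 h, and 6.96, 6.74 and 6.93 at 30 h. All 3 arrays at 30 h were above all 9 others, while the heart-beating, 4 h and 16 h arrays overlapped. The rise at 30 h was 0.40 (SE 0.09, adjusted p = 0.00849), a fold of 1.32, and it was called without any 1 of the 12 arrays. Cyp1a2, the main hepatic enzyme of the family and the one that metabolises caffeine, had signals of 12.36, 12.18 and 12.11 in heart-beating donors, 12.21, 12.08 and 11.82 at 4 h, 12.44, 12.41 and 12.25 at 16 h, and 12.61, 12.54 and 12.62 at 30 h. Its 3 arrays at 30 h were also the highest of the 12. The rise was 0.37 against heart-beating donors (SE 0.10, adjusted p = 0.0175) and 0.55 against 4 h (SE 0.10, adjusted p = 0.00168). The first of these calls was lost without heart-beating replicate 2 (0.36, adjusted p = 0.0552) or replicate 3 (0.32, adjusted p = 0.0793), and the second held without any 1 array. At 4 and 16 h Cyp1a2 differed by -0.18 (adjusted p = 0.973) and 0.15 (adjusted p = 0.438). Cyp1b1, which acts on estrogens and is found mostly outside hepatocytes, differed by 0.16, -0.07 and 0.08 at the 3 times and was not called. Of the other genes listed around this family, the receptor Ahr, its partner Arnt and the AHR-responsive Ahrr and Tiparp, none was called against heart-beating donors at any time.

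Cyp1a1 and Cyp1a2 are neighbours in the annotation, as are Cyp2j3 and Cyp2j4 below. Each of these pairs had both genes called at 30 h in the same direction, Cyp2j3 at 1 of its 2 probe sets. No other pair of neighbouring members had both genes called at 30 h. Among those pairs were Cyp4a1 with Cyp4a3 or Cyp4b1, Cyp4f6 with Cyp4f1, and Cyp3a2 with Cyp3a23-3a1. The share of neighbouring pairs called together was not computed over all genes. A probe set may also detect a neighbour that is close in sequence, so the calls of a pair need not be independent. The 250 bases before the annotated start are shown for all 7 genes that were called against heart-beating donors and have an entry in the RefSeq promoter table (GRCr8). Capitals mark matches to the motifs named after the sequences. The stretches are chr8:66978150-66978399, minus strand for Cyp1a2, chr1:90780242-90780491, plus strand for Cyp2b3, chr1:248980768-248981017, minus strand for Cyp2c22, chr1:252863068-252863317, minus strand for Cyp2c23, chr5:116360500-116360749, minus strand for Cyp2j3, chr5:116323043-116323292, minus strand for Cyp2j4 and chr7:12708379-12708628, minus strand for Cyp4f6.
Cyp1a2: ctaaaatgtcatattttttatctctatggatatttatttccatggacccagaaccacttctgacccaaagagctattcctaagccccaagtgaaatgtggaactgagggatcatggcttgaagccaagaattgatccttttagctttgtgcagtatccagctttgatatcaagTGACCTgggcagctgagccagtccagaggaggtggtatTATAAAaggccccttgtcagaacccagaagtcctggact
Cyp2b3: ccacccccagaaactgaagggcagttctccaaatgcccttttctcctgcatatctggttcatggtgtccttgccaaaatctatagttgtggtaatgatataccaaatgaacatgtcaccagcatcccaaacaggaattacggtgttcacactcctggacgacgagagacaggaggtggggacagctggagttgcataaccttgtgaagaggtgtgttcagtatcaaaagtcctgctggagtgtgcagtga
Cyp2c22: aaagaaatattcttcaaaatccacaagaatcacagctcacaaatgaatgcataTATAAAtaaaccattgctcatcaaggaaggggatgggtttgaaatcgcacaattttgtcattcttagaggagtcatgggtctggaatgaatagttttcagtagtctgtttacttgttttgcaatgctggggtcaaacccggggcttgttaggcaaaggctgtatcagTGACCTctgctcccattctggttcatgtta
Cyp2c23: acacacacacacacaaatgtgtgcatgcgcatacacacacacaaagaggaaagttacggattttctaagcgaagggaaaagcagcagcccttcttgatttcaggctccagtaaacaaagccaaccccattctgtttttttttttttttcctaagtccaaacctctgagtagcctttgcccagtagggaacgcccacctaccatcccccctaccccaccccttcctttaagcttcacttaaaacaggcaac
Cyp2j3: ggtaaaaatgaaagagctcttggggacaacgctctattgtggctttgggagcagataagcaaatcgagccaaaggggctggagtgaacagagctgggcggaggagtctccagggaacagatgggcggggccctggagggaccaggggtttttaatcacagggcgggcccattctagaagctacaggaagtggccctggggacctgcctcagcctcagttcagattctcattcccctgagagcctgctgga
Cyp2j4: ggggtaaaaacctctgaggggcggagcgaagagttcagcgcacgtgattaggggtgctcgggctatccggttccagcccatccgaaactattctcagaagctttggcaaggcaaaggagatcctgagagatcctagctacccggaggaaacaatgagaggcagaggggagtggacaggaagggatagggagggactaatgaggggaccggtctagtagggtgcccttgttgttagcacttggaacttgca
Cyp4f6: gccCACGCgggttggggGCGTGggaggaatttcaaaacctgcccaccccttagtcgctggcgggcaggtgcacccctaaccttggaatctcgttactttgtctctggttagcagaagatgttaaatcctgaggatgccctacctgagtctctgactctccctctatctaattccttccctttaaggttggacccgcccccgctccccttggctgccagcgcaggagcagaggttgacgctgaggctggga

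The motifs, searched on both strands, were TATAAA (an element of the core promoter), GCGTG (core of the site that AHR binds with ARNT), AGGTCA (core element of nuclear receptor sites, written TGACCT on the other strand) and TTATGTAA (the D-box that Dbp and Tef bind). Cyp1a2 held TATAAA at 39 to 34 bases before the start and AGGTCA on the opposite strand at 77 to 72. Cyp2c22 held TATAAA at 197 to 192 and AGGTCA on the opposite strand at 30 to 25. Cyp4f6 held GCGTG at 233 to 229 and, on the opposite strand (written CACGC), at 247 to 243. The other 4 genes shown held none of the 4 motifs in this window, and no match overlapped another. Of 33469 promoters, 12.9% held TATAAA, 25.9% GCGTG, 14.1% AGGTCA and 0.828% TTATGTAA. Among the 43 member genes with an entry, 13 held TATAAA (30.2%), 10 GCGTG (23.3%), 15 AGGTCA (34.9%) and 1 TTATGTAA (2.33%). These matches describe letters only.

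The CYP2 family, the largest with 27 probe sets of 25 genes, had 2 calls at 16 h (7.41%, against 4.67% of all probe sets) and 4 at 30 h (14.8%, against 19.7%), and they ran both ways. The epoxygenases Cyp2j3 and Cyp2j4, which oxidise arachidonic acid, were higher. Cyp2j4 had signals of 8.85, 8.87 and 8.81 in heart-beating donors, 8.80, 8.90 and 9.07 at 4 h, 9.34, 9.46 and 9.08 at 16 h, and 9.27, 9.37 and 9.24 at 30 h. Every array at 16 and 30 h was above every heart-beating array and above every 4 h array, and the 16 and 30 h arrays overlapped. The rise was 0.45 at 16 h (SE 0.10, adjusted p = 0.0175) and 0.45 at 30 h (SE 0.10, adjusted p = 0.00497), each a fold of 1.37. The call at 30 h held without any 1 array. The call at 16 h was lost without 16 h replicate 1 (0.43) or 2 (0.37) or heart-beating replicate 3 (0.43), with adjusted p from 0.0741 to 0.0928.

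Cyp2j3 was covered by 2 probe sets, of which 1 was called. The probe set with the plain suffix _at had signals of 7.75, 8.34 and 7.78 in heart-beating donors, 8.17, 7.91 and 8.37 at 4 h, 8.28, 8.19 and 8.20 at 16 h, and 8.57, 8.98 and 8.43 at 30 h. Its 30 h arrays were above all others, but the highest heart-beating array (8.34) came within the range of the 4 and 16 h arrays. The rise at 30 h was 0.70 (SE 0.17, adjusted p = 0.0103), a fold of 1.63 and the largest rise of any member called against heart-beating donors. It was not called without heart-beating replicate 3 (0.61, adjusted p = 0.0507). The other probe set, with the suffix _a_at, gave 0.36 at 30 h (SE 0.15, adjusted p = 0.11), with signals of 9.31, 9.79 and 9.39 in heart-beating donors and 9.80, 10.12 and 9.66 at 30 h. Those 2 groups overlapped at that probe set.

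Cyp2c22, which hydroxylates retinoic acid in rat hepatocytes, was lower at 16 h and at its starting level at 30 h. Its signals were 12.34, 12.66 and 12.50 in heart-beating donors, 12.35, 11.85 and 12.42 at 4 h, 11.38, 11.63 and 12.04 at 16 h, and 12.16, 12.66 and 12.47 at 30 h. The 16 h arrays were below all heart-beating and all 30 h arrays and overlapped with those at 4 h, where 1 array was low. The difference was -0.82 at 16 h (SE 0.18, adjusted p = 0.0228), 1.76-fold lower and the largest change of any member called, and -0.07 at 30 h (SE 0.18, adjusted p = 0.839, 95% interval -0.46 to 0.32). The rise from 16 to 30 h was 0.75 (SE 0.18, adjusted p = 0.0205). Both calls depended on single arrays. The fall was not called without 16 h replicate 1 (-0.67) or 2 (-0.79) or heart-beating replicate 2 (-0.74) or 3 (-0.82), with adjusted p from 0.0743 to 0.102. The rise was not called without 16 h replicate 1 (0.60) or 2 (0.72) or 30 h replicate 2 (0.64).

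Cyp2b3, a constitutive CYP2B enzyme of rat liver, was lower at 30 h. Its signals were 12.47, 12.39 and 12.59 in heart-beating donors, 12.16, 12.07 and 12.07 at 4 h, 12.53, 12.59 and 12.58 at 16 h, and 11.60, 12.003 and 12.26 at 30 h. The 30 h arrays were below all heart-beating and 16 h arrays and spread over a wider range than any other group. The 4 h arrays were also below all heart-beating arrays, but the difference of -0.38 (SE 0.12, adjusted p = 0.869) was not called. The fall at 30 h was -0.53 (SE 0.12, adjusted p = 0.00893), 1.44-fold lower, and was called without any 1 array. It was not called when the fit held the 2 compared groups alone (adjusted p = 0.0573). From 16 to 30 h the fall was -0.61 (SE 0.12, adjusted p = 0.00844), and from 4 to 16 h there was a rise of 0.46 (SE 0.12, adjusted p = 0.0369), so the 4 groups did not follow a single course. The rise was not called without heart-beating replicate 1 or without any 1 of the 6 arrays compared (0.45 to 0.49, adjusted p from 0.0507 to 0.115).

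Cyp2c23, an arachidonic acid epoxygenase of rat liver and kidney, was also lower at 30 h. Its signals were 12.50, 12.90 and 12.67 in heart-beating donors, 12.90, 12.83 and 13.04 at 4 h, 12.71, 12.66 and 12.59 at 16 h, and 12.17, 12.38 and 12.41 at 30 h. The 30 h arrays were the lowest of the 12. The difference from heart-beating donors was -0.37 (SE 0.10, adjusted p = 0.0198), and that from 4 h was -0.60 (SE 0.10, adjusted p = 0.00104). The second call held without any 1 array. The first was lost without heart-beating replicate 2 (-0.27) or 3 (-0.38) or 30 h replicate 1 (-0.29), after cyclic loess (-0.20, adjusted p = 0.146), after a further quantile normalization (-0.24, adjusted p = 0.0966) and in the fit of the compared groups alone (adjusted p = 0.0723).

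Cyp2e1, the enzyme of ethanol and acetaminophen oxidation and one of the strongest signals on the array, stayed within 0.04 of the heart-beating mean through 16 h. Its signals were 13.55, 13.57 and 13.44 in heart-beating donors, 13.53, 13.57 and 13.59 at 4 h, 13.58, 13.53 and 13.48 at 16 h, and 13.10, 13.40 and 13.35 at 30 h. The 30 h arrays lay below all others, with 1 clearly lower. The difference at 30 h was -0.24 against heart-beating donors (SE 0.08, adjusted p = 0.0506, not called) and -0.28 against 4 h (SE 0.08, adjusted p = 0.0251). With 1 probe set per gene the first had an adjusted p of 0.0493. Without 30 h replicate 1 the second was -0.19 (adjusted p = 0.0777), and without any 1 of the 4 h arrays it was not called either (-0.29 to -0.27, adjusted p from 0.0512 to 0.0785). After cyclic loess both were smaller, at -0.02 and -0.10, and neither was called. The second was not called after a further quantile normalization (-0.20, adjusted p = 0.0678) or with the compared groups alone (adjusted p = 0.0861) either.

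Cyp2u1, a fatty acid hydroxylase, was lower at 30 h than at 4 h by -0.31 (SE 0.09, adjusted p = 0.0332). It had signals of 7.61, 7.29 and 7.47 in heart-beating donors, 7.51, 7.68 and 7.37 at 4 h, 7.29, 7.18 and 7.26 at 16 h, and 7.15, 7.20 and 7.29 at 30 h. The 30 h arrays were below all 4 h arrays and just below the lowest heart-beating array. The call was lost without 4 h replicate 1 (-0.31) or 2 (-0.23) or 30 h replicate 1 (-0.27) or 2 (-0.30), with array weights (adjusted p = 0.0798), with the compared groups alone (adjusted p = 0.0654) and with a replicate block (adjusted p = 0.0562), and the difference of -0.24 from heart-beating donors was not called (adjusted p = 0.0839).

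None of the other CYP2 members was called. The 5 members with the highest mean signals in heart-beating donors were Cyp2c7, Cyp2e1, Cyp2c12, Cyp2c6v1 and Cyp3a23-3a1, although signals of different probe sets do not measure relative amounts. Cyp2c7, a retinoid-oxidising enzyme, had a mean of 13.82 ± 0.06 (SD, n = 3) in heart-beating donors and 13.67 ± 0.04 at 30 h, a difference of -0.16 (SE 0.06, adjusted p = 0.0743) with groups that did not overlap. Cyp2c6v1 differed by -0.07, 0.03 and 0.08 at the 3 times, with SE of 0.06. Cyp2t1 had the lowest point estimate at 30 h among members that were not called, -0.61 (SE 0.22, adjusted p = 0.0629), with 30 h signals from 7.19 to 8.21 that overlapped the heart-beating range of 7.87 to 8.55.

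Several rat P450 genes are known for sex-dependent expression, and none of those named here was called. Cyp2c12, predominant in female rats, had a signal of 13.42 ± 0.05 in heart-beating donors and 13.42 ± 0.03 at 30 h, and its differences of -0.03, -0.01 and 0.00 (SE 0.05) were among the smallest of the superfamily. The male-predominant Cyp2c11 had means of 7.64 ± 0.07, 7.62 ± 0.14, 7.55 ± 0.16 and 7.84 ± 0.23 in the 4 groups in order of time, a difference of 0.20 at 30 h (SE 0.11, adjusted p = 0.266). Cyp2c13, Cyp2a2 and Cyp3a2, also male-predominant, had heart-beating means of 7.32, 5.79 and 4.55. Their differences at 30 h were -0.04, 0.09 and 0.31, and none was called at any time. For Cyp3a2 the 30 h arrays were 5.10, 5.06 and 4.45 against 4.63, 4.52 and 4.52 in heart-beating donors, and without 30 h replicate 3 the difference was 0.53 (adjusted p = 0.0197). At such signals a probe set may not measure its transcript.

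The CYP3A enzymes, which in liver act on the widest range of drugs, had 0 calls among 4 probe sets at any time. Of all probe sets, 4.67% were called at 16 h and 19.7% at 30 h. At 30 h, 1 of the 4 had an unadjusted p under 0.05 (25%, against 31.6% of all probe sets). Cyp3a23-3a1, the PXR-inducible form, had signals of 12.88, 12.91 and 12.99 in heart-beating donors and 12.92, 13.09 and 12.72 at 30 h, a difference of -0.02 with a 95% interval of -0.20 to 0.17. Cyp3a9 had 12.55, 12.17 and 12.26 in heart-beating donors and 11.95, 11.20 and 12.26 at 30 h. Its difference of -0.52 (SE 0.20, adjusted p = 0.0869) rested on 2 of the 3 arrays, and the groups overlapped. Cyp3a18 differed by 0.29 at 30 h (SE 0.27, adjusted p = 0.505).

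**Figure D3:**
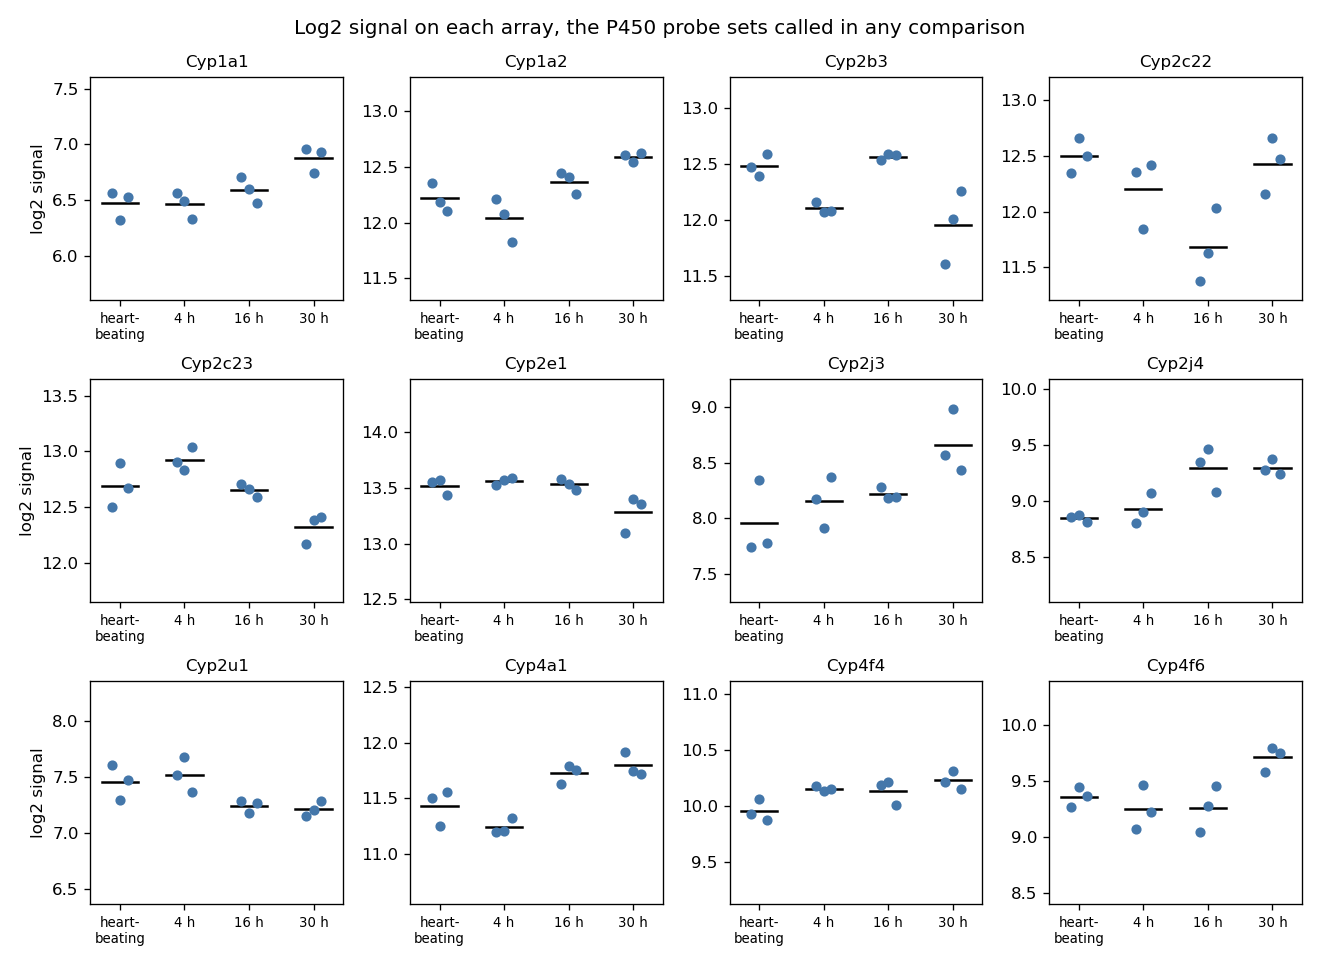
Log2 signal on each of the 12 arrays (dots) with the group mean (bar) for the 12 cytochrome P450 probe sets called in at least 1 of the 6 comparisons, with axes that span the same number of log2 units. Cyp1a1, Cyp1a2 and Cyp4f6 are highest at 30 h, Cyp2c23 and Cyp2e1 are lowest there, and Cyp2c22 is lowest at 16 h.

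The CYP4 fatty acid hydroxylases had 0 calls at 4 and 16 h and 3 at 30 h, all higher, among 12 probe sets of 10 genes. The calls at 30 h were 25% of the 12, where 19.7% of all probe sets were called, 10.4% higher. Above the median signal, 33.3% of the CYP4 probe sets and 30.2% of all probe sets were called at 30 h. At an unadjusted p under 0.05, 3 of the 12 passed at 4 h (25%, against 5.27% of all probe sets) and 6 at 16 h (50%, against 19.1%). Cyp4a1, the PPARA target that hydroxylates lauric acid, had signals of 11.50, 11.25 and 11.56 in heart-beating donors, 11.20, 11.21 and 11.32 at 4 h, 11.63, 11.79 and 11.76 at 16 h, and 11.92, 11.75 and 11.72 at 30 h. The 16 and 30 h arrays were above all heart-beating and all 4 h arrays. The difference from heart-beating donors was -0.19 at 4 h (adjusted p = 0.938), 0.29 at 16 h (SE 0.09, adjusted p = 0.0841) and 0.36 at 30 h (SE 0.09, adjusted p = 0.012). Against 4 h it was 0.48 at 16 h (adjusted p = 0.00611) and 0.55 at 30 h (adjusted p = 0.000814, the smallest of any member in any comparison), and both of these calls held without any 1 array. The call at 30 h against heart-beating donors was lost without heart-beating replicate 2 (0.27, adjusted p = 0.0536) and in the fit of the compared groups alone (adjusted p = 0.052). The neighbouring Cyp4a3 differed by 0.22 at 16 h (adjusted p = 0.248) and -0.06 at 30 h (adjusted p = 0.736), and the 2 probe sets of Cyp4a8 gave -0.24 and -0.41 at 16 h and 0.11 and -0.12 at 30 h, with no call.

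The CYP4F enzymes, which hydroxylate leukotrienes and other eicosanoids, had 2 of 5 genes called at 30 h, both higher. Of all probe sets, 19.7% were called at 30 h, 10.4% higher, and 5 genes are too few for a share of the subfamily to be read. Cyp4f4 had signals of 9.92, 10.06 and 9.87 in heart-beating donors, 10.18, 10.13 and 10.15 at 4 h, 10.19, 10.21 and 10.01 at 16 h, and 10.22, 10.31 and 10.15 at 30 h. Its 4 h and 30 h arrays were above all heart-beating arrays. The difference was 0.20 at 4 h (SE 0.08, adjusted p = 0.921) and 0.27 at 30 h (SE 0.08, adjusted p = 0.0214). The call was lost without heart-beating replicate 1 (0.26) or 3 (0.23) or 30 h replicate 2 (0.23), and in the fit of the compared groups alone (adjusted p = 0.0623). Cyp4f6 had signals of 9.27, 9.45 and 9.37 in heart-beating donors, 9.07, 9.46 and 9.22 at 4 h, 9.05, 9.28 and 9.46 at 16 h, and 9.58, 9.80 and 9.76 at 30 h. The 30 h arrays were the highest of the 12 and the other 3 groups overlapped. Its rise of 0.35 at 30 h (SE 0.11, adjusted p = 0.046) was lost without any 1 of 7 arrays (heart-beating replicates 1, 2 and 3, 4 h replicate 3, 16 h replicate 2, and 30 h replicates 2 and 3), with differences from 0.31 to 0.40, and also under median centring (adjusted p = 0.0534) and a trended, robust variance model (adjusted p = 0.0528). Against 16 h the rise was 0.45 (SE 0.11, adjusted p = 0.0248), and against 4 h it was 0.46 (SE 0.11, adjusted p = 0.0127). The former was lost in the fit of the compared groups alone (adjusted p = 0.055) and without 16 h replicate 1 (0.35) or 2 (0.46) or 30 h replicate 2 (0.41) or 3 (0.43), and the latter without 4 h replicate 1 (0.37). Cyp4f1, the neighbour of Cyp4f6, differed by 0.07 at 30 h (adjusted p = 0.476). Cyp4b1, an enzyme best known from lung, had the smallest adjusted p of all members at 4 h (0.838), with a difference of 0.31 at 4 h and 0.32 at 16 h (adjusted p = 0.083). Its heart-beating signals of 7.21, 7.40 and 7.27 lay below all those at 4 h (7.65, 7.50 and 7.66) and 16 h (7.55, 7.49 and 7.79).

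The remaining 14 probe sets, of 11 genes for steroid hormones, vitamin D, retinoic acid, oxysterols and 1 orphan enzyme, had 0 calls in the 6 comparisons. Of all probe sets, 4.67% were called at 16 h and 19.7% at 30 h. At an unadjusted p under 0.05, 1 of the 14 passed at 4 h (7.14%, against 5.27% of all probe sets), 1 at 16 h (7.14% against 19.1%) and 2 at 30 h (14.3% against 31.6%). Cyp26a1, which degrades retinoic acid, had the largest differences among them at 4 and 16 h, with 0.52 (SE 0.23, adjusted p = 0.933) and 0.65 (SE 0.23, adjusted p = 0.14). Its heart-beating signals of 7.22, 6.49 and 6.20 were widely spread and overlapped those at 4 h (6.77, 7.14 and 7.56), 16 h (7.52, 7.05 and 7.30) and 30 h (7.004, 7.14 and 7.14). The related Cyp26b1 differed by 0.68 at 30 h at 1 probe set (SE 0.24, adjusted p = 0.065), where 2 of 3 arrays were high, and by 0.01 at the other (SE 0.07, adjusted p = 0.96). The steroidogenic Cyp11a1, Cyp11b1, Cyp17a1, Cyp19a1 and Cyp21a1, which belong to adrenal and gonad more than to liver, differed by -0.28 to 0.07 across the 3 times. Cyp27b1, which activates vitamin D, and Cyp39a1, an oxysterol hydroxylase of liver, differed by 0.18 (adjusted p = 0.178) and 0.19 (adjusted p = 0.514) at 30 h. The brain enzyme Cyp46a1, which clears cholesterol, and the orphan Cyp20a1 stayed within 0.06 of the heart-beating mean at all times.

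The 5 members with the lowest signals in heart-beating donors were Cyp4f17, Cyp2j10, Cyp3a2, Cyp4f5 and Cyp2b12, with means from 4.08 to 4.86, and none was called at any time. Of the 6 genes with several member probe sets, 1 had a call against heart-beating donors (Cyp2j3, at 1 of 2 probe sets). Cyp2d4 had 0.22 and 0.14 at 30 h, Cyp4v3 had -0.18 and -0.02, and the 3 probe sets of Cyp19a1 had -0.14, -0.06 and -0.28, all without a call. Genes of a P450 subfamily are close in sequence, so a probe set may detect more than 1 of them. A suffix other than plain _at, given to probe sets that can match several transcripts, was carried by 3 members (Cyp2c6v1, Cyp2c13 and 1 probe set of Cyp2j3).

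The electron donors of the P450s, and the gene lists that follow, were read at the brightest probe set of each gene. Over 14217 genes, 5.6% were called at 16 h (4.3% higher, 1.3% lower) and 23% at 30 h (12.5% higher, 10.5% lower), and no listed gene was called at 4 h. Of 7 measured partners, 1 was higher and 1 lower at 16 h and 2 were lower at 30 h. The 2 at 16 h were 1 without heart-beating replicate 1 or 3, 4 h replicate 2 or any 1 of the 16 h arrays, and the 2 at 30 h were 1 without heart-beating replicate 3. Fdx1, the ferredoxin of mitochondrial P450s, had signals of 11.88, 11.87 and 12.08 in heart-beating donors, 11.46, 11.53 and 11.39 at 16 h, and 11.53, 11.58 and 11.49 at 30 h. It fell by 0.48 at 16 h (SE 0.07, adjusted p = 0.00403) and by 0.41 at 30 h (SE 0.07, adjusted p = 0.0018), without overlap, and its other probe set moved the same way (-0.56 and -0.65). Cyb5a, the cytochrome b5 that assists microsomal P450s, fell by 0.26 at 30 h (SE 0.07, adjusted p = 0.0142). Por, the reductase of all microsomal P450s, had signals of 7.87, 8.81 and 7.91 in heart-beating donors, 8.34, 7.89 and 7.73 at 4 h, 9.58, 9.17 and 9.12 at 16 h, and 7.85, 8.65 and 8.79 at 30 h. It was higher at 16 h by 1.09 (SE 0.27, adjusted p = 0.0409), and at 30 h differed by 0.23 (adjusted p = 0.614). The probe sets of Por disagreed, because the dimmer one differed by -0.13 at 16 h and by -0.90 at 30 h (adjusted p = 0.00259). Those of Cyb5b and Pgrmc2, not called at the brightest (0.28 and -0.10 at 30 h), disagreed too. A dimmer probe set differed at 30 h by -0.61 for Cyb5b (adjusted p = 0.00121) and by -1.13 for Pgrmc2 (adjusted p = 0.000325). A further probe set of Pgrmc2 differed by -0.01.

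**Figure D4:**
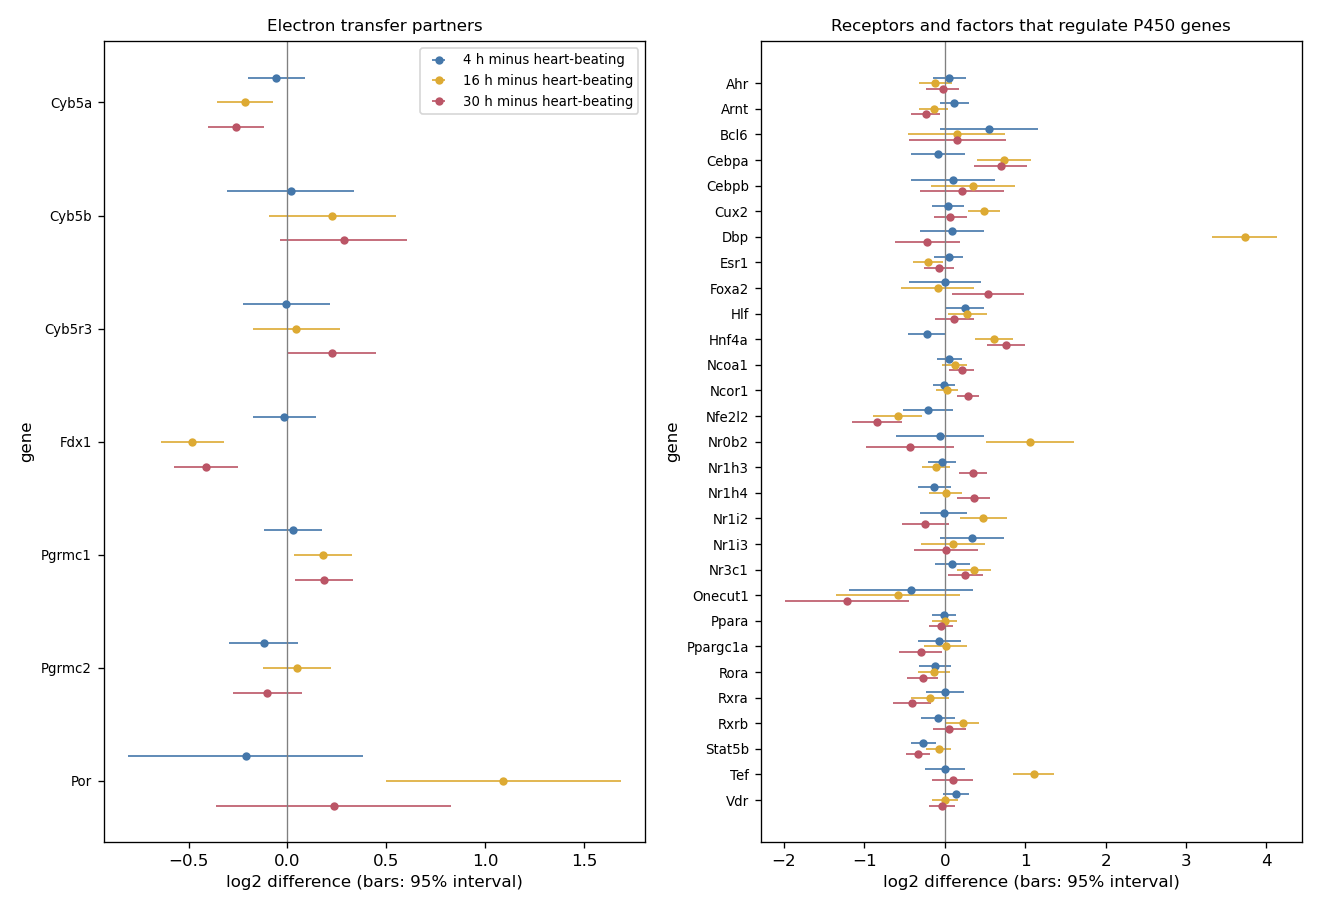
Log2 difference from heart-beating donors at 4, 16 and 30 h for the electron transfer partners (left) and the regulators of P450 genes (right), at the brightest probe set of each gene. Dots are differences of group means and bars are 95% confidence intervals, and Dbp at 16 h (3.73) lies farthest from 0.

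Of 29 receptors and factors known to regulate P450 genes, 6 were higher and 1 lower at 16 h, and 5 were higher and 4 lower at 30 h. The count of 7 at 16 h was 2 without heart-beating replicate 3, 3 without 16 h replicate 1 or 2, and 2 with the Gapdh covariate. Dbp, a clock-controlled factor that binds the D-box, had signals of 5.08, 5.26 and 5.13 in heart-beating donors, 9.44, 8.41 and 8.81 at 16 h, and 5.16, 4.82 and 4.84 at 30 h. It was 3.73 higher at 16 h (SE 0.19, adjusted p = 4.35e-07) and -0.22 from the heart-beating level at 30 h (adjusted p = 0.473). Its relative Tef was 1.11 higher at 16 h (SE 0.12, adjusted p = 0.000431). Hnf4a and Cux2 were also higher at 16 h, by 0.61 and 0.49 (1.35 at the other probe set of Cux2). At 30 h the 4 regulators with the smallest p were Hnf4a (0.76, SE 0.11), Nfe2l2 (-0.84, SE 0.14), Stat5b (-0.33, SE 0.07) and Ncor1 (0.29, SE 0.06, with 0.47 and -0.15 at its other probe sets). The direction of Hnf4a, a receptor that many hepatic P450 genes require, depended on the probe set, since the others differed by -0.61 (adjusted p = 0.000938) and -0.39 (adjusted p = 0.0785) at 30 h. The xenobiotic receptors Ahr, Nr1i2 (PXR) and Nr1i3 (CAR) and the fatty acid receptor Ppara were not called against heart-beating donors at any time.

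Enzymes that share the tasks or the places of the P450s were called mainly at 30 h. Of 19 other phase I enzymes, 0 were called at 4 and 16 h, and 2 were higher and 5 lower at 30 h (4 in all without 30 h replicate 1). The 4 with the smallest p were Adh4 (-0.81), Maoa (-1.09), Ephx2 (-0.62, the hydrolase of the epoxides that CYP2J and CYP2C enzymes make) and Maob (-0.44). The median of the list was -0.13 at 30 h, against 0.01 over all genes. Many P450s are pericentral in the liver lobule, and of 13 other pericentral genes 1 was higher at 16 h (Glul, 0.41), and 1 was higher (Rgn, 0.29) and 2 lower (Gulo, -1.10, and Slc1a2, -0.28) at 30 h. The probe sets of Glul disagreed, since the others differed by 0.30 and -0.28 at 16 h and by 0.10 and -1.48 (adjusted p = 2.95e-05) at 30 h. The other probe set of Gulo differed by -2.03 at 30 h and that of Slc1a2 by 0.00. The call of Glul was lost without heart-beating replicate 1, 2 or 3 or 16 h replicate 3. Of 17 periportal genes 0 were called at 16 h (4 without heart-beating replicate 2) and 3 were lower at 30 h (5 called without heart-beating replicate 1 or 30 h replicate 3; Fbp1, -1.08, Otc, -0.34, and Hsd17b13, -0.37). The medians at 30 h, at the brightest probe sets, were -0.03 for the pericentral list and -0.25 for the periportal list. Some genes not called there at 30 h were lower at a dimmer probe set (adjusted p from 7.36e-05 to 0.013). They were Akr1c14 (-0.83 and -1.70, brightest -0.13) and Fmo4 (-0.36, brightest -0.03) among phase I enzymes. The others were the pericentral Lect2 (-1.33, brightest -0.06) and the periportal Cps1 (-1.70, brightest 0.08) and Asl (-0.91, brightest -0.25). No dimmer probe set of these lists was called higher at 30 h.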

How the data were processed

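Total RNA of hepatocytes from 12 rats was hybridised to Affymetrix arrays with 1 colour. The deposited table holds log2 values, which the authors made by RMA, a method that corrects background, equalises the distributions of the arrays and summarises each probe set, per the submitters' processing notes, which also name limma. The notes carry no version of either tool. Probe sets were named from GEO's platform annotation, in which 20826 had 1 gene symbol, 436 several and 9780 none, and all 60 members matched RefSeq by gene ID with the same symbol. After 57 control probe sets were left out, 31042 were fitted in limma 3.58.1 (R 4.3.3) with 1 mean per group over all 12 arrays and empirical Bayes moderation (8 residual and 4.933 prior degrees of freedom). Adjusted p-values are Benjamini-Hochberg values over all 31042 within each of 6 comparisons, and a call is an adjusted p under 0.05. Only 3 arrays per group limit the precision, and log2 signals of RMA understate large changes of dim probe sets.

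Named members were the called probe sets with non-overlapping groups (up to 10 rises and 10 falls against heart-beating donors, up to 5 of each between times), the well-known Cyp1a2, Cyp2c11, Cyp2e1, Cyp3a2 and Cyp4a1 whether called or not (Cyp2b1, also in the rule, has no probe set with its symbol alone), further probe sets of a named gene, the 5 brightest and 5 dimmest members, and up to 4 called genes per gene list around the P450 system. Members named beyond this rule were picked with their values in view. The members, the gene lists and the rules were chosen with earlier results of these data known. Alternatives were 3 further normalizations, a filter on dim probe sets, 1 probe set per gene, omission of suffixed probe sets, another variance model, array weights, smaller fits, a replicate block, a Gapdh covariate and omission of each array. RNA quality was compared by exact permutation tests.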

Additional observations from a re-analysis of the deposited data

Results flagged for a closer look

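The effect of the interval after death on 10 P450 genes differed between intervals by limma's test of the difference itself, with p-values adjusted over all 31042 probe sets. Between 4 and 16 h, Cyp2b3 rose by 0.46 (SE 0.12, adjusted p = 0.0369), Cyp2j4 by 0.37 (SE 0.10, adjusted p = 0.0303) and Cyp4a1 by 0.48 (SE 0.09, adjusted p = 0.00611). Between 16 and 30 h, Cyp2b3 changed by -0.61 (SE 0.12, adjusted p = 0.00844), Cyp2c22 by 0.75 (SE 0.18, adjusted p = 0.0205) and Cyp4f6 by 0.45 (SE 0.11, adjusted p = 0.0248). Between 4 and 30 h, 5 genes rose. They were Cyp1a1 (0.41, adjusted p = 0.00765), Cyp1a2 (0.55, adjusted p = 0.00168), Cyp2j4 (0.37, adjusted p = 0.0144), Cyp4a1 (0.55, adjusted p = 0.000814) and Cyp4f6 (0.46, adjusted p = 0.0127). Over the same span Cyp2c23 changed by -0.60 (adjusted p = 0.00104), Cyp2e1 by -0.28 (adjusted p = 0.0251) and Cyp2u1 by -0.31 (adjusted p = 0.0332). In each of these comparisons all 3 arrays of one interval lay above all 3 of the other. This adds no support, because the results were picked by their calls on the same arrays. Groups did not overlap for 32.5% of all probe sets at 16 h against 4 h (30% of the members). The shares were 26.6% at 30 h against 16 h (25% of the members) and 32% at 30 h against 4 h (21.7%). The call of Cyp2j4 between 4 and 30 h was lost without 4 h replicate 1 (0.31, adjusted p = 0.0663) or 30 h replicate 2 (0.34, adjusted p = 0.0505), and that between 4 and 16 h without 4 h replicate 1 (0.31) or 2 (0.36) or 16 h replicate 1 (0.35) or 2 (0.29), after cyclic loess (0.29, adjusted p = 0.0801), after a further quantile normalization (0.25, adjusted p = 0.13) and in the fit of the compared groups alone (adjusted p = 0.0541). RNA quality differed between these intervals, and its part in the differences was not tested apart from the covariate fit.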

How the results depend on the processing

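Of 25 called results of named members, 9 were called whichever single array was left out, 8 under every alternative but the Gapdh covariate, and 0 under all. Without single arrays the number of members called stayed at 0 at 4 h (7 at an unadjusted p under 0.05 with all arrays, limma) and ran from 0 to 3 at 16 h, 4 to 13 at 30 h, 1 to 6 between 4 and 16 h, 1 to 8 between 16 and 30 h, 5 to 12 between 4 and 30 h, and 6 to 12 by the F test. The share of all probe sets by the F test (21.3%) was computed only for the main fit of all 12 arrays. F test counts under the alternatives therefore do not show whether the members moved apart from the other probe sets. The count at 30 h was 4 without heart-beating replicate 3 (6.67%, against 13.5% of all probe sets) and 13 without 30 h replicate 3 (21.7% against 19.5%). At 16 h it was 0 without heart-beating replicate 3 or without 16 h replicate 1 or 2, where 1.52%, 2.07% and 1.44% of all probe sets were called. At an unadjusted p under 0.05, 8, 7 and 7 members passed there, and 4529, 4529 and 4478 of all 31042 probe sets. The 16 h count was 1 without heart-beating replicate 2 (1.67% against 3.2%). Between 16 and 30 h the count was 8 without 30 h replicate 2 (13.3%, against 13.3% of all probe sets). It was 5 without 30 h replicate 3 or heart-beating replicate 2 (8.33% against 10.3% and 10.2%), and 1 without 16 h replicate 1 or 2 (1.67% against 4.08% and 6.91%). Between 4 and 16 h it was 1 without 16 h replicate 1 or 2 (1.67% against 4.18% and 3.48%) and 6 without 30 h replicate 2 (10% against 9.25%). Between 4 and 30 h it was 5 without 4 h replicate 1 (8.33% against 14.7%) and 12 without 30 h replicate 3 (20% against 19.1%).

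A further quantile normalization called 15 at 30 h (10 higher, 5 lower), 25% of the members against 20.9% of all probe sets, and cyclic loess called 13 (21.7% against 20.6%), so under both the members' share lay above that of all probe sets, and as deposited below it. Both settings called 4 between 4 and 16 h (2 higher, 2 lower), 6.67% of the members against 7.53% and 7.75% of all probe sets. Array weights called 5 at 16 h (8.33%, against 11.7% of all probe sets) and 9 between 4 and 16 h (15% against 13.2%). Fits of the compared groups alone called 4 at 16 h (6.67% against 6.93%), 5 at 30 h (8.33% against 13.3%) and 8 between 4 and 16 h (13.3% against 10.9%). Fits without the 30 h arrays called 5 at 16 h (8.33% against 8.07%) and 6 between 4 and 16 h (10% against 12%). With the Gapdh covariate, limma called 0 at 16 h, at 30 h, between 16 and 30 h and between 4 and 30 h, with 16, 6, 6 and 9 at an unadjusted p under 0.05, and 1 by the F test. Of all 31042 probe sets, 70, 0, 8 and 0 were called in these 4 comparisons, and 6705, 4438, 3138 and 4884 had such an unadjusted p. That fit also turned the sign of Cyp3a2 at 16 h (-0.50), of Cyp2b3 (0.46), Cyp2c11 (-0.60), Cyp2c23 (0.069), Cyp2e1 (0.30), Cyp3a2 (-1.23) and Cyp4a1 (-0.14) at 30 h, and of Cyp2e1 (0.26) and Cyp2u1 (0.12) between 4 and 30 h. Without single arrays, uncalled differences crossed 0 for the _a_at probe set of Cyp2j3 at 4 h (-0.10 to 0.18), Cyp2c11 at 4 h (-0.066 to 0.059) and 16 h (-0.14 to 0.0038), and Cyp2e1 at 4 h (-0.0019 to 0.066) and 16 h (-0.031 to 0.036). For all of these the cause was not tested, except that single-array fits hold fewer arrays and the covariate raised the members' median SE at 30 h to 0.35.

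Replicate numbers did not pair the animals, since deviations of same-numbered arrays correlated from -0.27 to 0.11 with a median of -0.03. With a replicate block, 0, 2, 9, 4, 3 and 7 members were called in the 6 comparisons and 8 by the F test. The members' shares were 0%, 3.33%, 15%, 6.67%, 5% and 11.7%, against 0.00644%, 3.78%, 18.1%, 6.8%, 8.71% and 17.7% of all probe sets. The only call of a named member that the block ended was Cyp2u1 between 4 and 30 h (adjusted p = 0.0562). Dim probe sets, 3 animals a group and the RNA quality that moved with the interval limit all of these results.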

Other observations

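A further 7 probe sets carried several Cyp symbols and were left out of the superfamily's counts, because their signal cannot be given to 1 gene. At 30 h, 2 of them were lower. The probe set shared by Cyp2a1 and Cyp2a2, steroid hydroxylases of rat liver, had log2 signals of 12.21, 11.82 and 12.03 in heart-beating donors and 11.40, 11.53 and 11.40 at 30 h. The groups did not overlap, and the difference was -0.58 (SE 0.09, limma adjusted p = 0.000656). The probe set with the symbol Cyp2a1 alone differed by -0.15 (adjusted p = 0.328), with signals of 11.97, 11.54 and 11.70 against 11.59, 11.62 and 11.54.

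The probe set shared by Cyp11b1, Cyp11b2 and Cyp11b3, enzymes of corticosteroid synthesis in the adrenal, had dim signals of 5.88, 5.95 and 5.99 in heart-beating donors and 5.40, 5.47 and 5.47 at 30 h, a difference of -0.49 (SE 0.08, adjusted p = 0.00141). The probe set shared by the phenobarbital-inducible Cyp2b1 and Cyp2b2 differed by -0.44 at 16 h (adjusted p = 0.306) and -0.30 at 30 h (adjusted p = 0.388). The one shared by Cyp4a2 and Cyp4a3 differed by 0.19 at 30 h (adjusted p = 0.176).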
